A study of Mus musculus with 4 samples.

Results

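The genes described here are 10 members of the major histocompatibility complex (MHC) class I presentation pathway: B2m, H2-K1, H2-D1, H2-Q4, H2-Q7, Tap1, Tap2, Tapbp, Psmb8 and Psmb9. They were chosen by name, and all 10 had a row in each of the 4 count files, which together list 31781 genes. Single-cell RNA libraries were made from mammary tissue of MMTV-PyMT mice, whose mammary epithelium is driven to form tumors by the polyoma middle T antigen under the mouse mammary tumor virus promoter, a transgene that the controls carry too. The 4 groups, with 1 library each, were WT hyperplasia and PKA hyperplasia (hyperplastic glands at 8 to 9 weeks) and WT tumor and PKA tumor (tumors at 16 to 20 weeks in the sample labels, given as 22 weeks for the series). WT means wild type for protein kinase A (PKA), and PKA means mice with activated PKA, the kinase that answers to cyclic AMP; the labels do not say by which allele or in which cells it was activated, nor give the strain. No agent was given. How many mice each library holds is not stated either, so every difference below compares 2 libraries. The intervals given with them cover counting error only, and variation between mice or preparations is not in them.

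Class I molecules show fragments of a cell's own proteins on its surface to CD8 T cells. The proteasome cuts proteins into peptides, and its interferon-induced form carries the catalytic subunits Psmb8 (LMP7) and Psmb9 (LMP2) in place of the constitutive Psmb5 and Psmb6. The transporter of Tap1 and Tap2 moves peptides into the endoplasmic reticulum, where tapasin (Tapbp) holds an empty class I molecule next to it. A class I molecule is a heavy chain, such as the classical H2-K1 and H2-D1 or the non-classical H2-Q4 and H2-Q7, paired with beta-2-microglobulin (B2m), without which most heavy chains do not reach the surface. Interferons induce the whole set, and loss of it is a known route by which tumor cells avoid CD8 T cells.

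B2m lies on chromosome 2 and the other 9 members on chromosome 17, where Psmb9, Tap1, Psmb8 and Tap2 stand side by side between 34181987 and 34216321 (GRCm38, the build of the submitters' notes). The promoters of B2m and the heavy chains are shown because the readings of these genes differed between PKA and WT in opposite ways at the 2 stages. They are RefSeq windows of GRCm38.p6, from 250 bases before to 50 bases after the annotated start, on the strand of the gene. Of the 10 members, 9 had an entry. Capitals mark GAAA, any 2 bases, GAAA (the interferon-stimulated response element) and its shorter form GAANNGAAA, TGACG (the core of the cyclic AMP response element) and CCAAT on either strand.

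B2m, chr2:122147437-122147736, + strand: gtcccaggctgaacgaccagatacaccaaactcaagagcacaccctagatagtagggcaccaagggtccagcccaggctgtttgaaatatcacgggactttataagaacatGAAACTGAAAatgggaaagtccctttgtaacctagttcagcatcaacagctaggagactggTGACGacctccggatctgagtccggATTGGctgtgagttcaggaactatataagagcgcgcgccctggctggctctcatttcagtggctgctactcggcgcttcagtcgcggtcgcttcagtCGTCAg
H2-K1, chr17:34000298-34000597, - strand: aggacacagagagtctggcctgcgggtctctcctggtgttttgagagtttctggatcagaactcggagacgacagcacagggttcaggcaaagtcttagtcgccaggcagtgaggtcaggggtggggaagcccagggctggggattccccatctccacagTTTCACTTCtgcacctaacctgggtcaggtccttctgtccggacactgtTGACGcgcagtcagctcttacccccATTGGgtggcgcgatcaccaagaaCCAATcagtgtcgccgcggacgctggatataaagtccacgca
H2-D1, chr17:35262844-35263143, + strand: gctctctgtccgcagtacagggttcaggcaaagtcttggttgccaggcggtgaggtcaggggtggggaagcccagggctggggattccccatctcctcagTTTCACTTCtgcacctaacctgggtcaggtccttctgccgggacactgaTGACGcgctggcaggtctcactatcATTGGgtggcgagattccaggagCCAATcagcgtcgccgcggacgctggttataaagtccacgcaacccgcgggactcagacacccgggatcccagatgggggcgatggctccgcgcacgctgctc
H2-Q4, chr17:35379367-35379666, + strand: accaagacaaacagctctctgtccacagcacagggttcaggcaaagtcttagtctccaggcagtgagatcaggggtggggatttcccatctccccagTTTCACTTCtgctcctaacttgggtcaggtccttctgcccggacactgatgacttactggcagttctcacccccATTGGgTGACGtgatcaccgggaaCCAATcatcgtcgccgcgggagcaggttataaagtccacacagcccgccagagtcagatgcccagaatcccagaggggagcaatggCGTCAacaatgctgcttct
H2-Q7, chr17:35438905-35439204, + strand: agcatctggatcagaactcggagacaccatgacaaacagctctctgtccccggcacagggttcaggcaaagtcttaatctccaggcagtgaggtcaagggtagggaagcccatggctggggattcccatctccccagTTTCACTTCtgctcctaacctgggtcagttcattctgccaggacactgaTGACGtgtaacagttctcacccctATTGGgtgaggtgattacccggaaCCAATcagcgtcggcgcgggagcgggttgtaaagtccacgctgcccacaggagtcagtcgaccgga

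The 4 heavy chain promoters carried the same 9 letters, TTTCACTTC, which is GAANNGAAA read on the other strand. They lay 90, 150, 153 and 113 bases before the start for H2-K1, H2-D1, H2-Q4 and H2-Q7. B2m carried the longer form, GAAACTGAAA, 139 bases before its start, and no other member did. GAANNGAAA was found in 4 of the 9 members and in 7.56% of 27025 promoters of the same length, and the longer form in 1 of 9 and 3.49%. The shorter form was searched for after the heavy chain promoters had been read. TGACG was in 7 of 9 members and 21.0% of promoters, CCAAT in 8 of 9 and 37.9%, and the full TGACGTCA in 0 of 9 and 1.88%. Tap1 and Psmb9 start close together on opposite strands and their windows are mostly the same DNA, so their TGACG is 1 site counted for both members, and so is their CCAAT. GGG, any 5 bases, CC, a loose form of the NF-kappaB site, was in 7 of 9 and 50.4%. The 4 heavy chain windows also share longer runs of letters, so their matches cannot be counted as independent of each other. A match is only a run of letters, and some patterns overlap.

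Annotated cells numbered 3808 (WT) and 3818 (PKA) in hyperplasia and 5181 (WT) and 2638 (PKA) in tumor. Their totals ran from 10648097 to 24499374 UMIs (unique molecular identifiers, each standing for 1 captured RNA molecule), with medians of 2557 to 5890.5 UMIs per cell. Library pairs shared 16 to 24 annotated barcodes, at most 0.758% of the smaller library. The authors' classes were Luminal Progenitor 1, Luminal Progenitor 2, Mature Luminal and Basal in the glands, and Luminal Progenitor 1, Mature Luminal, Lumino-Basal and EMT-like in the tumors. The study's markers of Basal and Mature Luminal cells each had their highest summed level in the class of that name. Those of Luminal Progenitor were highest in Luminal Progenitor 1 in the glands but in the EMT-like class in the tumors (2538 against 2116 CPM in WT, 7457 against 5033 CPM in PKA). Those of Lumino-Basal were higher in Mature Luminal than in Lumino-Basal cells of the WT tumor (4563 against 3410 CPM). In the class labelled EMT-like, Trim29 and Cldn6 had no UMI in either tumor and the summed level of the 4 EMT-like markers was 255 CPM in WT against 365 CPM in PKA, below the 709 and 819 CPM of Luminal Progenitor 1. That class is therefore called by its label only. PKA and WT cells of 1 class were not always alike. When cells were clustered without the genes of any list, 94.8% of the WT hyperplasia Mature Luminal cells fell in a cluster (number 13) with no PKA cell, and all 251 PKA ones in another (number 14). In the tumors, 65.5% of WT Lumino-Basal cells were in cluster 10 and 68.2% of the PKA ones in cluster 11. Of the EMT-like cells 78.3% of WT ones were in cluster 6 and 71.8% of PKA ones in cluster 9.

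UMIs were summed over the cells of a library or class and given as CPM, the UMIs of a gene per 1000000 UMIs of that sum, so all levels are relative to the other RNA of the same cells. Ratios are log2 of PKA over WT with an exact interval of 95%. A gene was counted as higher or lower where it passed 1.5-fold and its interval lay wholly on that side of 0, among genes with at least 20 UMIs in both sums together. All 10 members passed that minimum in all 10 comparisons. The intervals cover counting error only. Tap1 and Psmb9 overlap on opposite strands. The sources used here do not give the counting strand, so reads in the overlap could go to either. B2m, H2-Q4, Tap2, Tapbp and Psmb8 also overlap other annotated genes, Tapbp partly with Zbtb22 on its own strand. Of the 98-base stretches at the end of H2-Q7, 3.27% are also in H2-Q5. Which alleles of the heavy chains the mice carried is not given in the labels. Whether allele differences affected the counting of heavy chains was not tested.

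**Figure D1:**
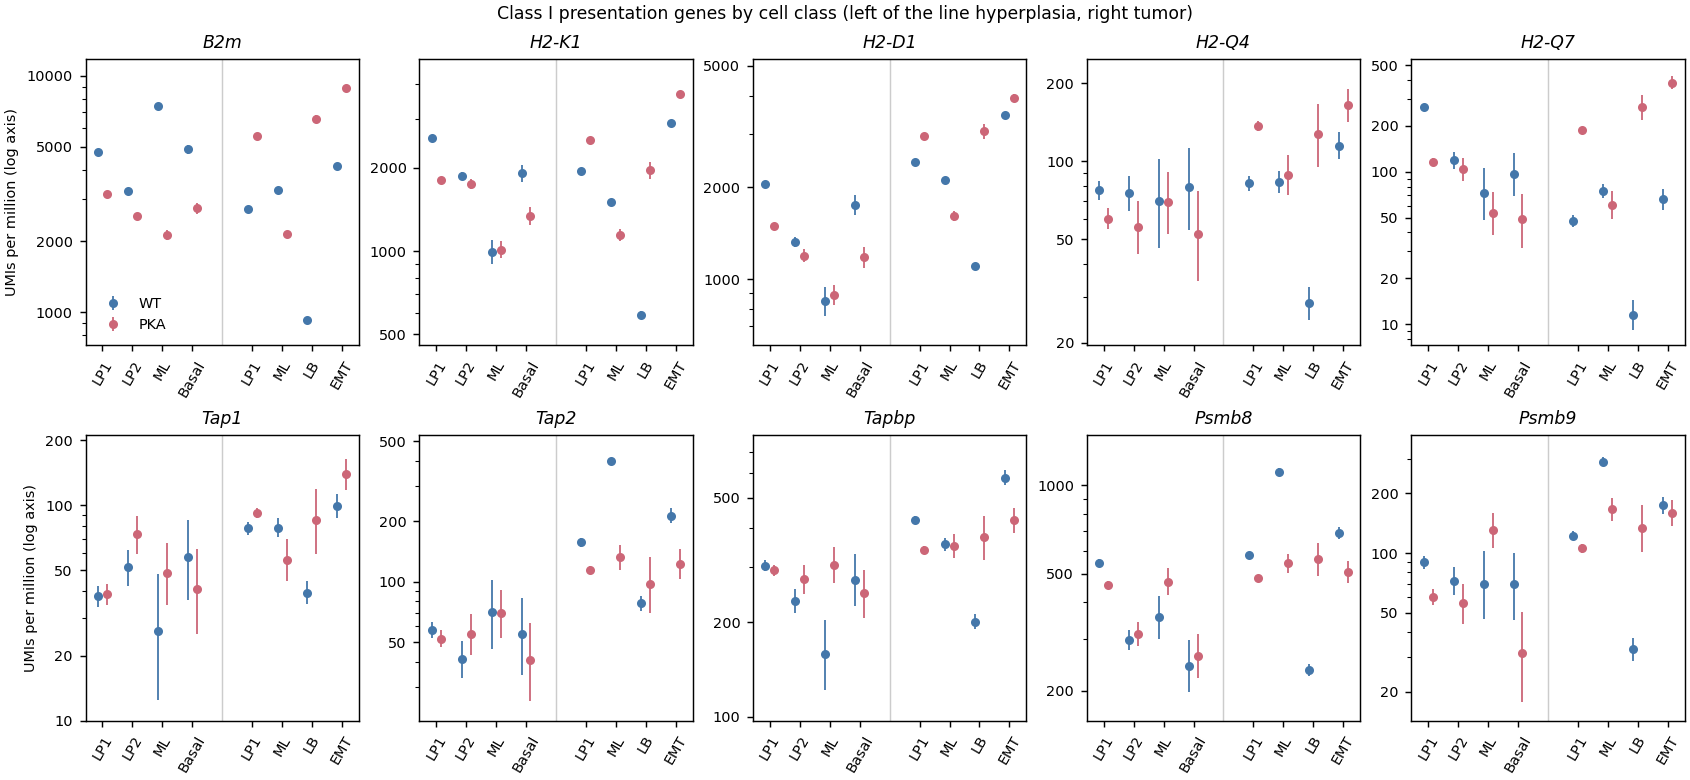
Level of each of the 10 genes (CPM, log axis) in each class of WT (blue) and PKA (red) libraries, hyperplasia left of the grey line and tumor right of it, with exact Poisson intervals of 95%; each point is 1 library. LP1 and LP2 are Luminal Progenitor 1 and 2, ML Mature Luminal, LB Lumino-Basal and EMT EMT-like. B2m runs from 929 CPM in WT tumor Lumino-Basal to 8868 CPM in PKA tumor EMT-like cells.

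In hyperplasia, taken over all annotated cells, B2m and the heavy chains were lower in PKA than in WT, while the transporter and tapasin had intervals that held 0. Over all annotated cells, B2m was at 4551 CPM in WT against 2997 CPM in PKA (log2 ratio -0.60, interval -0.62 to -0.58), and H2-Q7 at 223 and 107 CPM (-1.06, interval -1.16 to -0.96). These were the 2 members counted as lower, where 5.02% of all 14547 genes tested were; 0 members were counted as higher, against 5.22%. H2-K1 was at 2340 CPM in WT against 1720 CPM in PKA (-0.44, interval -0.47 to -0.42) and H2-D1 at 1848 and 1400.3 CPM (-0.40, interval -0.43 to -0.37), both short of 1.5-fold with intervals clear of 0. H2-Q4, non-classical, was at 76.7 and 59.9 CPM (-0.36, interval -0.51 to -0.21). Tap1 stood at 40.8 CPM in WT against 43.9 CPM in PKA, Tap2 at 54.5 and 53.2 CPM, and Tapbp at 283 and 289.8 CPM. Psmb9 was at 84.9 and 63.1 CPM (-0.43, interval -0.57 to -0.28) and Psmb8 at 479 and 431 CPM (-0.15, interval -0.21 to -0.09), but Psmb8 was at 0.06 with classes weighted equally. The median over the 10 members was -0.38, beside 0.00 over all genes tested. Averaged with equal weight over the clusters that both libraries fill, B2m was at -0.43 and 1 member was lower, and at 2-fold or without cells holding a leukocyte, fibroblast or endothelial marker UMI the count was 1 as well.

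Luminal Progenitor 1, which made up most of both gland libraries, read much like the whole. H2-Q7 was at 265 CPM in WT against 116 CPM in PKA (-1.19, interval -1.31 to -1.08) and was the 1 member counted as lower, where 5.52% of all genes tested were; 0 were higher, beside 4.59%. B2m (4749 and 3169 CPM, -0.58, interval -0.61 to -0.56) and Psmb9 (89.8 and 59.99 CPM, -0.58, interval -0.75 to -0.41) lay just inside 1.5-fold. The count of lower members was 3 with totals that leave out mitochondrial, ribosomal protein and milk genes, where all genes lower went from 726 to 742 of the 13162 tested. It was also 3 without cells holding a leukocyte marker UMI, where all genes were not counted. In Luminal Progenitor 2 no member passed, beside 3.77% of genes higher and 3.84% lower; B2m was at 3259 and 2545 CPM (-0.36, interval -0.42 to -0.30) and H2-K1 at 1870 and 1743 CPM (-0.10, interval -0.18 to -0.03). By the mean of each cell's CPM, H2-K1 was at 0.11 there and H2-D1, at -0.15 in the sums, was at 0.05. Tap1 was higher in PKA in this class, at 51.4 CPM in WT against 73.3 CPM, with a ratio of 0.47 to 0.71 across the settings run. Tap2 (41.2 and 55.2 CPM), Tapbp (234 and 274 CPM) and Psmb8 (299 and 313 CPM) were also above WT, while H2-Q4, H2-Q7 and Psmb9 were below it.

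Basal cells gave 3 members lower, with 5.58% of genes lower and 3.34% higher in that comparison: B2m (4884 CPM in WT, 2752 CPM in PKA, -0.83, interval -0.93 to -0.73), H2-Q7 (97.0 and 48.7 CPM, from 39 and 25 UMIs, -0.99, interval -1.78 to -0.23) and Psmb9 (69.6 and 31.2 CPM, from 28 and 16 UMIs, -1.16, interval -2.14 to -0.22). Markers of other cell types moved with these values. The sum of 14 leukocyte markers was 413 CPM in the WT Basal cells (8 of 14 detected, with Ptprc, Cd3e, Cd3g, Nkg7, Cd79a and Ms4a1 at 0) and 11.7 CPM in the PKA ones (4 of 14). All of these leukocyte UMIs lay in 3 of 200 WT and 4 of 228 PKA cells. Fibroblast markers summed to 1582 and 801 CPM and endothelial ones to 306 and 91.6 CPM. Without the 77 WT and 56 PKA cells that held a UMI of any of these markers, B2m was at -0.86 and the count of lower members was 1. H2-Q7 was at -0.91 (interval -1.87 to 0.05) and Psmb9 at -0.83 (interval -2.23 to 0.54) over these fewer cells, and Psmb8 was counted as higher (0.69).

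Mature Luminal cells of the glands separated B2m from its heavy chains. B2m was at 7427 CPM in WT against 2119 CPM in PKA (-1.81, interval -1.90 to -1.72), the second highest and the second lowest of its 16 class levels, the latter overlapping the 2134 CPM of PKA tumor Mature Luminal cells. H2-K1 was at 992 and 1012 CPM (0.03, interval -0.15 to 0.21), and H2-D1 at 849 and 891 CPM (0.07, interval -0.12 to 0.26). Tapbp (159 and 305 CPM, 0.94, interval 0.53 to 1.37) and Psmb9 (70.3 and 130.2 CPM, 0.89, interval 0.26 to 1.56) were higher in PKA. B2m was the 1 member lower where 7.92% of genes were, and Tapbp and Psmb9 were 2 members higher where 6.43% were. The 5 fibroblast markers summed to 609 CPM in WT (Pdgfra at 0) and 120 CPM in PKA, nearly all of it Dcn (599 and 117 CPM). Without the cells holding any leukocyte, fibroblast or endothelial marker UMI, B2m was at -1.83 and Tapbp (0.80) was the 1 member higher, with Psmb9 at 0.72 (interval -0.12 to 1.66). These WT and PKA cells fell in separate clusters, so the ratio compares unlike cells of 1 class. Scaling by TMM factors (edgeR) raised each ratio of this comparison by 0.13, and the share of higher genes among all that passed went from 44.8% to 62.5%.

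**Figure D2:**
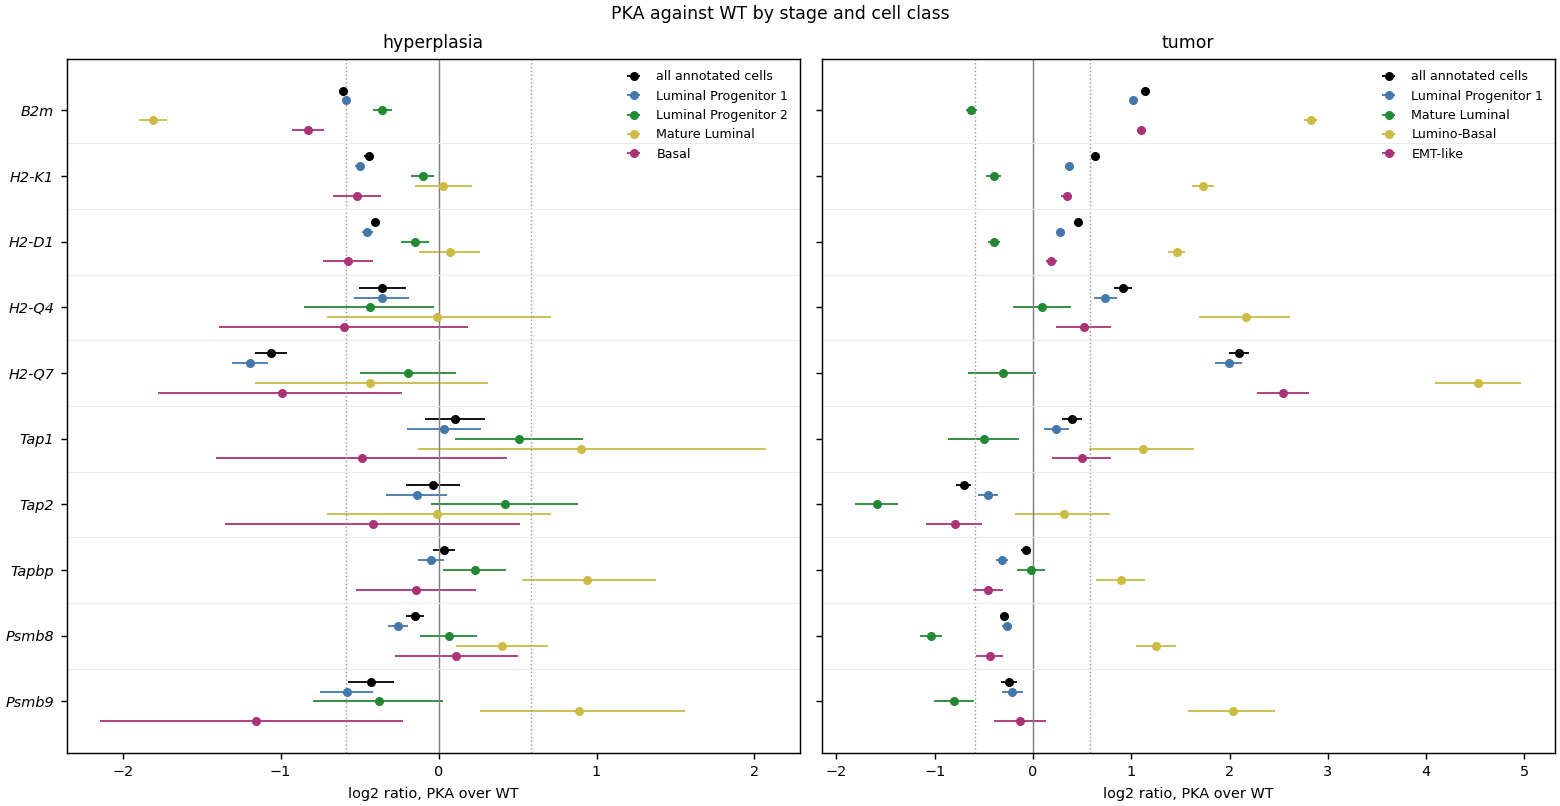
Log2 ratio of PKA over WT for each gene in all annotated cells (black) and in each class (colours), hyperplasia left and tumor right, with exact intervals of 95%; dotted lines mark 1.5-fold and each point compares 1 library with 1 library. B2m, H2-K1, H2-D1, H2-Q4 and H2-Q7 are below 0 in hyperplasia and above 0 in tumor over all cells, while tumor Mature Luminal has B2m at -0.63.

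In tumors, the light chain and heavy chains were higher in PKA, and Tap2 was lower. Over all annotated cells, B2m was at 2494 CPM in WT against 5485 CPM in PKA (1.14, interval 1.12 to 1.15), H2-K1 at 1582 and 2454 CPM (0.63, interval 0.61 to 0.65) and H2-D1 at 2110.0 against 2895 CPM (0.46, interval 0.44 to 0.47). H2-Q4 was at 70.9 and 134 CPM (0.92, interval 0.83 to 1.01), and H2-Q7 at 45.0 and 192 CPM (2.09, interval 1.99 to 2.19), the largest ratio among the members. The 4 members counted as higher were B2m, H2-K1, H2-Q4 and H2-Q7, where 13.3% of all 17944 genes tested were higher. Tap2 was at 189 and 116 CPM (-0.70, interval -0.78 to -0.63) and was the 1 member lower, where 12.1% of genes were. Tap1, its partner in the transporter, was at 69.7 and 91.8 CPM (0.40, interval 0.30 to 0.50), but at -0.05 with the clusters that both tumors fill weighted equally. Tapbp (365 and 347 CPM), Psmb8 (604 and 492 CPM) and Psmb9 (136 and 115 CPM) were within 1.5-fold. Averaged with equal weight over the 6 clusters that both tumors fill, B2m was at 0.44 and H2-Q7 at 1.17, and 2 members were higher. Without cells holding a leukocyte, fibroblast or endothelial marker UMI, Tap2 was at -0.56, just inside 1.5-fold, so no member was then lower; none was at 2-fold either.

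Tumor Luminal Progenitor 1 cells had B2m and the non-classical heavy chains higher in PKA past 1.5-fold, and the classical ones within it. B2m was at 2730 CPM in WT against 5534 CPM in PKA (1.02, interval 1.0 to 1.04), H2-Q4 at 82.0 and 136 CPM (0.73, interval 0.62 to 0.85) and H2-Q7 at 47.5 and 189 CPM (1.99, interval 1.85 to 2.13). These 3 members were higher, beside 13.1% of genes, and none was lower, beside 9.29%. H2-K1 was at 1941 and 2508 CPM (0.37, interval 0.34 to 0.39) and H2-D1 at 2429.5 and 2942 CPM (0.28, interval 0.25 to 0.30).

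In the class labelled EMT-like, B2m was at 4153 CPM in WT against 8868 CPM in PKA (1.09, interval 1.05 to 1.13), H2-Q7 at 65.8 and 383 CPM (2.54, interval 2.27 to 2.81) and Tap2 at 213 and 123 CPM (-0.80, interval -1.08 to -0.52). B2m and H2-Q7 were 2 members higher, beside 10.8% of genes, and Tap2 1 member lower, beside 9.66%. Under TMM scaling each ratio there was lower by 0.12 and the share of higher genes among all that passed went from 52.9% to 37.0%. The WT and PKA levels of H2-D1, 3452 and 3931 CPM, were the 2 highest of its 16 class levels.

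For B2m, the 4 heavy chains, Tap1, Psmb8 and Psmb9 the widest gap between PKA and WT was in the Lumino-Basal class. B2m was at 929 CPM in WT, the lowest of the 16 class levels, and at 6583 CPM in PKA (2.83, interval 2.76 to 2.89). H2-K1 was at 589 and 1960.0 CPM (1.73, interval 1.62 to 1.84) and H2-D1 at 1108 and 3058 CPM (1.46, interval 1.38 to 1.55). H2-Q7 was at 11.5 and 266 CPM, from 77 and 109 UMIs (4.53, interval 4.09 to 4.97). Psmb9 was at 32.8 and 134 CPM (2.03, interval 1.58 to 2.47) and Psmb8 at 236 and 561 CPM (1.25, interval 1.04 to 1.45). With H2-Q4, Tap1 and Tapbp, 9 members were higher, beside 10.8% of genes, and 0 lower, beside 12.1%; Tap2 was at 78.2 and 97.6 CPM (0.32, interval -0.18 to 0.79). TMM scaling lowered each ratio of this comparison by 0.18 and took the share of higher genes among all that passed from 47.2% to 32.0%. The PKA side rests on 66 cells against 1198 in WT. Within cluster 11 alone, a choice made after the data were seen, were 45 PKA and 215 WT Lumino-Basal cells. There 8 members were higher, with B2m at 1.99, H2-K1 at 1.5 and H2-Q7 at 4.02. How many of all genes were higher among these cells was not counted, so the 8 have no share beside them. Leukocyte markers summed to 39.7 CPM in WT (9 of 14 detected) against 2.44 CPM in PKA, and fibroblast markers to 112 CPM in WT against 722 CPM in PKA; without cells holding a leukocyte, fibroblast or endothelial marker UMI B2m was at 2.80.

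In tumor Mature Luminal cells B2m, Tap2 and the immunoproteasome subunits were lower in PKA. B2m was at 3296 CPM in WT against 2134 CPM in PKA (-0.63, interval -0.68 to -0.57) and Tap2 at 397 and 132 CPM (-1.59, interval -1.81 to -1.37), the WT value being the highest of its 16 class levels. Psmb8 was at 1115 and 543 CPM (-1.04, interval -1.15 to -0.93) and Psmb9 at 289 and 166 CPM (-0.80, interval -1.0 to -0.60), again with the WT level the highest of 16. These 4 members were lower, beside 6.98% of genes, and 0 were higher, beside 13.5%. H2-K1 (1506 and 1143 CPM, -0.40, interval -0.48 to -0.32) stayed within 1.5-fold. Scaling by TMM factors lowered every ratio of this comparison by 0.19, and 7 members were then lower. The number of all genes lower rose with it, from 842 to 1666 of the 12071 tested. The share of higher genes among all that passed went from 66.0% to 37.6%. Inside the class, cluster 3 had B2m at 3933 CPM in WT against 1850 CPM in PKA (-1.09), while cluster 7 had it at 2637 and 2817 CPM (0.09). Tap2 was at -1.59 in cluster 3 and at -1.41 in cluster 7. The fibroblast markers summed to 901 CPM in WT (Col1a2, Col3a1 and Pdgfra at 0) and 30.0 CPM in PKA, again nearly all Dcn (900.0 and 27.9 CPM); without cells holding a leukocyte, fibroblast or endothelial marker UMI, which leaves 463 WT and 125 PKA cells, B2m was at -0.84 and Tap2 at -1.67.

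**Figure D3:**
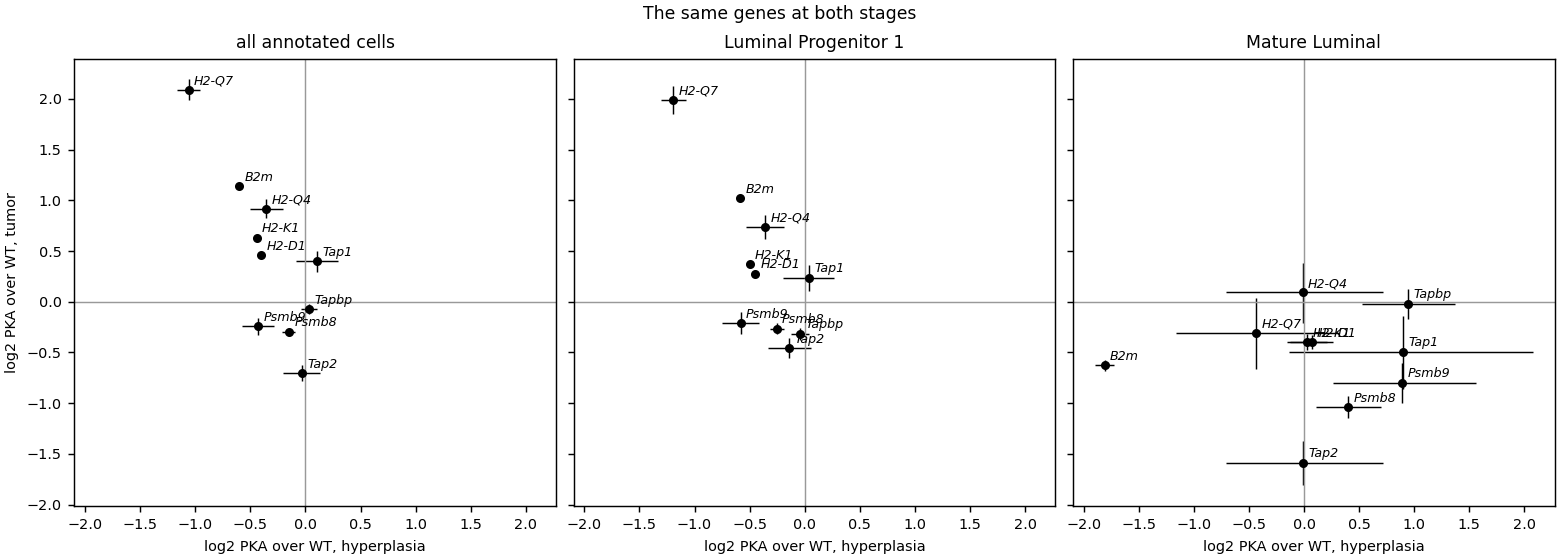
Log2 ratio of PKA over WT in hyperplasia (x) against tumor (y) for each gene in all annotated cells, Luminal Progenitor 1 and Mature Luminal, with exact intervals of 95% as crosses; grey lines mark 0. H2-Q7 lies at -1.06 and 2.09 over all cells, and in Mature Luminal Psmb8 and Psmb9 lie right of 0 and below it.

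The same genes can be set side by side at both stages. Over all cells, 5 of the 10 members (B2m and the 4 heavy chains) were below 0 in hyperplasia and above 0 in tumor with both intervals clear of 0, and the same count held in Luminal Progenitor 1. How many of all genes pointed opposite ways by this rule was not counted. These counts, and the Mature Luminal one below, therefore have no share of all genes beside them. Within WT, B2m in Luminal Progenitor 1 was at 4749 CPM in the gland and 2730 CPM in the tumor; within PKA it was at 3169 and 5534 CPM. H2-Q7 was at 265 and 47.5 CPM within WT and at 116 and 189 CPM within PKA. Tumors were older, had more UMIs per cell and were digested without the trypsin and dispase step that glands had, so stage, age and digestion cannot be told apart. In Mature Luminal cells, 2 members (Psmb8 and Psmb9) were above 0 in hyperplasia and below 0 in tumor.

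Per-cell counts show how these sums were made up. For these, 2000 UMIs were drawn at random from every cell that had as many. In WT tumor Lumino-Basal cells the median was 1 B2m UMI per cell, 77.4% of cells held 0 to 2, and 63.1% (exact interval 60.2 to 65.9%) had any. The PKA cells of that class had a median of 12, and 98.4% (interval 91.5 to 100.0%) had a UMI, over 63 cells after 3 were left out. With all UMIs kept the shares were 83.2% and 100.0%, at median depths of 5314.5 and 5918.5 UMIs. In hyperplasia Mature Luminal cells the B2m medians were 14.5 in WT and 4 in PKA, and 26.1% of WT cells but 0.575% of PKA cells held 20 or more. In Luminal Progenitor 1 the medians were 8 and 5 in hyperplasia and 4 and 9 in tumor, so the middle of the cells moved with the sum. H2-Q7 was seen in 8.38% (interval 7.26 to 9.62%) of WT and 25.3% (interval 23.4 to 27.3%) of PKA tumor Luminal Progenitor 1 cells, and in 14.9% and 46.7% with all UMIs kept, at median depths of 4143 and 5970.0 UMIs. No class here is known to lack class I genes, so no share from free RNA could be set beside these. Across thinned cells, B2m and H2-K1 had Pearson correlations from 0.16 (PKA hyperplasia Mature Luminal, 174 cells) to 0.63; the cells of a class share their library.

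**Figure D4:**
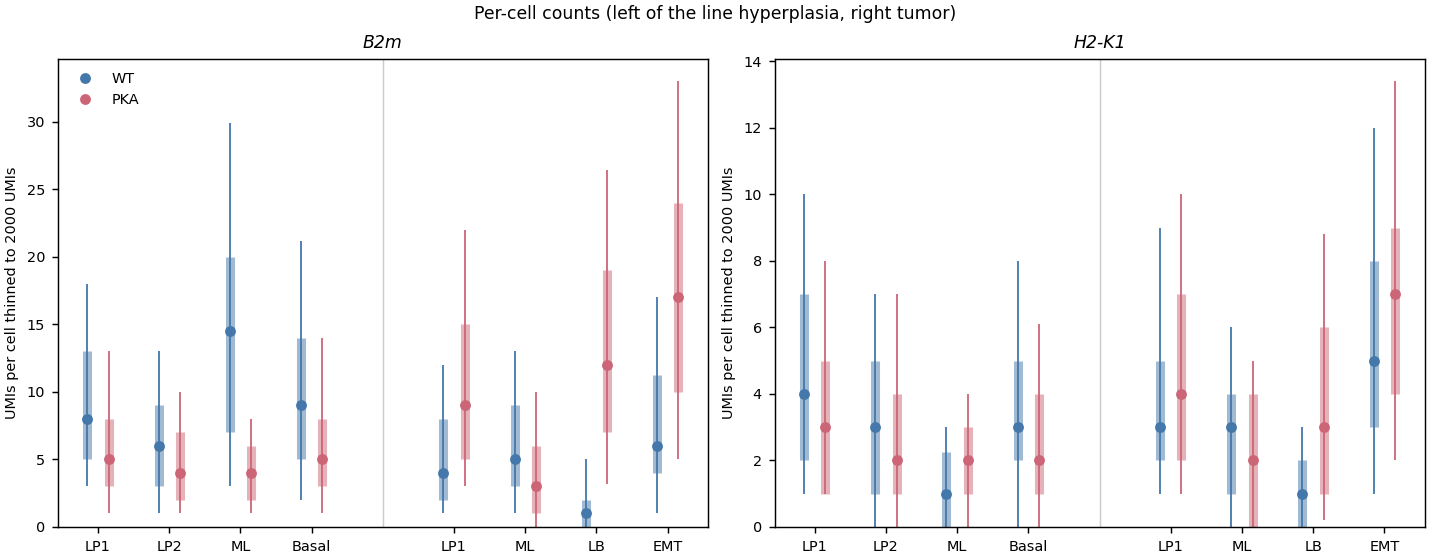
UMIs of B2m (left) and H2-K1 (right) per cell after thinning to 2000 UMIs, by class, WT blue and PKA red, hyperplasia left of the grey line and tumor right of it; points are medians over cells, thick bars quartiles, thin lines the 10th to 90th percentile. LP1 and LP2 are Luminal Progenitor 1 and 2, ML Mature Luminal, LB Lumino-Basal and EMT EMT-like. The WT tumor LB median for B2m is 1 and the PKA one 12.

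Numbered clusters grouped the annotated cells without using the authors' class names. The cells are the same ones as in the classes, so the 2 views are not independent. In hyperplasia, 11 clusters held at least 50 cells of both libraries, and B2m, H2-K1 and H2-D1 were below 0 in all 11, with medians of -0.46, -0.34 and -0.27. The B2m ratio ran from -0.85 in the Basal cluster to -0.08. H2-Q7 was below 0 in 10 of 11 (median -0.76), Tapbp in 4 of 11 and Psmb8 in 5 of 11. The 2 clusters of Mature Luminal cells are not among these 11, since 110 of 116 WT cells of the class were in one and all 251 PKA cells in the other; over that class H2-K1 (0.03) and H2-D1 (0.07) were not lower. In tumor, B2m, H2-Q4 and H2-Q7 were above 0 in 5 of 6 clusters, with medians of 0.60, 0.71 and 1.26; the exception for all 3 was Mature Luminal cluster 3. The clusters of 1 library pair share those 2 libraries and are not replicates. The 2 clusters that hold most WT Lumino-Basal and EMT-like cells had under 50 PKA cells and so are not among them.

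**Figure D5:**
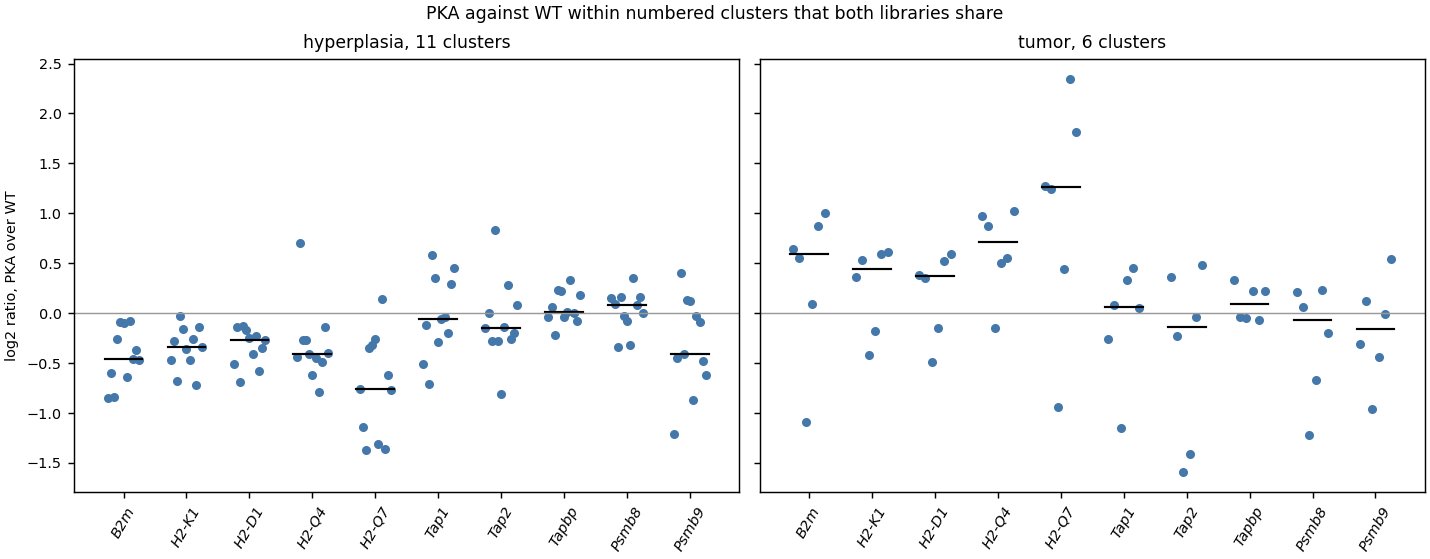
Log2 ratio of PKA over WT for each gene within numbered clusters that hold at least 50 cells of both libraries (points, 1 per cluster), with the median over clusters as a black line; hyperplasia left, 11 clusters, tumor right, 6. B2m points are all below 0 in hyperplasia, from -0.85 to -0.08.

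Among other class I heavy chains, in tumor over all cells, 6 of 15 with enough UMIs were higher and 0 lower, beside 13.3% and 12.1% of all genes tested, with a median of 0.54. H2-Q6, a close relative of H2-Q7, was at 30.5 and 138 CPM there (2.18), at 86.1 and 42.9 CPM in hyperplasia (-1.0), and at 6.59 and 154 CPM in Lumino-Basal cells (4.54). Of the stretches of read length (98 bases) in its last 500 transcript bases, 20.8% are also in H2-Q7, so reads of the pair may be split between them. H2-T22 was at 81.0 and 144 CPM in tumor (0.83). H2-T23, the heavy chain that shows leader peptides to NK cells, was at 443 and 487 CPM (0.13). Cd1d1, which shows lipids to NKT cells, was at 25.5 and 8.64 CPM in hyperplasia (-1.56), where 3 of 11 other heavy chains were lower and 1 higher, beside 5.02% and 5.22% of all genes tested.

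Of 10 other peptide loading genes, 1 was higher and 0 lower in hyperplasia over all cells (median -0.07), and 0 were either in tumor (median -0.05); Calr and Pdia3, chaperones of the loading complex, were at 517 and 483 CPM and at 260 and 222 CPM in WT and PKA hyperplasia. Of 14 constitutive proteasome subunits, 1 was lower in tumor (median -0.22) and 1 higher in hyperplasia (median -0.05). The shares of all genes tested were 5.22% higher and 5.02% lower in hyperplasia and 13.3% and 12.1% in tumor. Of 6 other immunoproteasome and activator genes, 0 passed in hyperplasia and 1 was lower in tumor, Psme3, a proteasome activator subunit (85.1 and 48.5 CPM, -0.81). Psmb10, the third immunoproteasome catalytic subunit, was at 161 and 123 CPM in tumor over all cells (-0.39), and was counted as lower in tumor Luminal Progenitor 1 (-0.59), Mature Luminal (-0.76) and EMT-like cells (-0.61). Psmb9 UMIs as a share of Psmb9 and Psmb6 together were 3.16% in WT and 20.3% in PKA Lumino-Basal cells, and 11.5% and 8.95% over all hyperplasia cells. Over all tumor cells the share was 14.3% in WT and 19.9% in PKA, though Psmb9 itself was at -0.24, since the share moves with Psmb6 too. In the tumors it was 14.0% and 18.8% in Luminal Progenitor 1, 18.0% and 26.4% in EMT-like and 28.6% and 24.4% in Mature Luminal cells. Psmb8 as a share of Psmb8 and Psmb5 was 50.4% and 71.2% in Lumino-Basal cells and 82.7% and 68.8% in tumor Mature Luminal cells. Shares of UMIs of 2 genes are not shares of protein.

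Some interferon response genes were higher in PKA at both stages. Of 14, 4 were higher and 1 lower in hyperplasia over all cells (median 0.40), beside 5.22% and 5.02% of all genes tested, with Isg15, a ubiquitin-like protein, at 330 and 572 CPM (0.79) and Irf7, a factor that drives interferon genes, at 404 and 629 CPM (0.64). In tumor 10 were higher and 1 lower (median 0.79), beside 13.3% and 12.1%, with Ifit3 at 62.9 and 156 CPM (1.31) and Ifi27l2a at 48.7 and 191 CPM (1.97). In Lumino-Basal cells 9 of 12 were higher (median 1.42), beside 10.8%, among them Oasl2 at 35.2 and 139 CPM (1.98). Of the class I regulators, 0 of 13 passed in hyperplasia and 3 of 14 were higher and 1 lower in tumor, with a median of 0.00; among the higher ones were Nlrc5, the class I transactivator (2.57 and 8.95 CPM, 1.80), and Irf9 (74.7 and 115 CPM, 0.62). Of the class II genes, which present to CD4 T cells and mark antigen presenting cells, 5 of 9 were lower in PKA over all hyperplasia cells and 6 of 8 over all tumor cells, and none was higher; Cd74 was at 55.4 and 24.9 CPM in hyperplasia and at 44.6 and 13.7 CPM in tumor. In hyperplasia Luminal Progenitor 2, 2 of 4 were higher instead, Cd74 (2.42) and H2-Ab1 (1.71), beside 3.77% of all genes tested there. These rest on 14 WT and 46 PKA UMIs of Cd74 and on 9 and 18 of H2-Ab1. The 14 leukocyte markers summed to 28.3 and 11.7 CPM in WT and PKA hyperplasia to 10.7 and 15.1 CPM in hyperplasia Luminal Progenitor 2, and to 16.9 and 9.55 CPM in the tumors, and their part in the class II values was not tested.

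Likeness between genes over the 16 class sums was read as a description, since sums of 1 library share it. Among 2052 genes that leave out the members, B2m was most like Acsl4 (Pearson 0.72) and Pam (0.60), H2-K1 most like Trf (0.81) and Lgals3bp (0.78), and Psmb8 most like Psme1 (0.85), a subunit of the proteasome activator. Among the members themselves, Psmb8 and Psmb9 were nearest (0.89), and B2m was nearer to H2-Q7 (0.81) than to H2-K1 (0.70) or H2-D1 (0.52). Tap2 and H2-Q7 had -0.05. Tap1 rested on as few as 10 UMIs in a class sum and its nearest gene, Ppp3ca (0.88), is given as a value only.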

How the data were processed

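Single-cell libraries of mammary tissue (10x Chromium 3' kit, cells sorted by FACS with a gate the labels do not describe) were analysed from raw UMI counts per gene and barcode as deposited by the authors. Tools named in the submitters' processing notes are STAR 2.5.3a, Cell Ranger and featureCounts of Subread 1.6.0, with the build GRCm38/mm10; the annotation release and counting strand are not given in the sources used here. Cell classes were assigned by the authors with Monocle2 from marker genes, per the labels. The fraction of mitochondrial UMIs per cell was used as deposited, for a filter only. Barcodes without a class were left out.

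Counts were summed by library and class and scaled to CPM. With 1 library per group there was no test; intervals are exact at 95% (conditional binomial for ratios, Poisson for CPM, Clopper-Pearson for shares) and cover counting error only. UMI molecules rather than reads were counted. The script for ratios was tested on simulated data. Clusters were made per stage by the Leiden method (2000 variable genes, 30 components, 15 neighbours, resolution 1) without the 134 genes of the lists. No doublet caller was run; leaving out the 5% of cells with the most UMIs stands in for it.

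The members and lists were chosen with earlier results of these data known. Besides the 10 members, genes were named from those lists (1 listed gene is not reported here by name), and as the most alike over the 16 class sums by Pearson correlation of log2(CPM + 10). Alternatives were TMM factors, other totals, means over cells, classes or clusters, cell filters, other minimums and a 2-fold threshold. The software was scanpy 1.11.5, pandas 2.3.3, SciPy 1.17.1, NumPy 2.4.6 and matplotlib 3.10.9 under Python 3.11.15, and edgeR 4.0.16 under R 4.3.3. Promoters came from RefSeq (GRCm38.p6) and gene positions from the GRCm38 annotation.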

Additional observations from a re-analysis of the deposited data

Results flagged for a closer look

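These results were picked out because PKA over WT pointed one way in hyperplasia and the other way in tumor, with both intervals of counting error clear of 0. The difference between the stages was not tested, since each group is 1 library. It is given as the tumor log2 ratio minus the hyperplasia log2 ratio. The rule was applied to the members only, so the share of all genes that would meet it is not known.

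Over all annotated cells the difference was 1.74 for B2m, 1.08 for H2-K1, 0.86 for H2-D1, 1.27 for H2-Q4 and 3.15 for H2-Q7. In Luminal Progenitor 1 it was 1.6 for B2m, 0.87 for H2-K1, 0.73 for H2-D1, 1.09 for H2-Q4 and 3.18 for H2-Q7. In Mature Luminal cells it ran the other way, -1.44 for Psmb8 and -1.69 for Psmb9.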

How the results depend on the processing

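No value past the threshold changed direction under the alternatives run, but 15 of 100 ratios of members changed sign, 5 of them with a main interval clear of 0. Those 5 were Psmb8 over all hyperplasia cells (0.06 with classes and 0.02 with shared clusters weighted equally), H2-K1 and H2-D1 in Luminal Progenitor 2 (0.11 and 0.05 by the mean of each cell's CPM), and Tap1 and Tapbp over all tumor cells (-0.05 and 0.11 with shared clusters weighted equally). Of the counts of members past the threshold, 192 stayed within 1.5 times and 22 did not. Some of the 192 could not have moved, since every member already passed the minimum of UMIs that 1 alternative dropped. Counts of 0 under both settings were also taken as unmoved. Of the remaining values, 717 were taken as unmoved and 141 as moved. Ratios of members and shares of cells with a B2m or H2-Q7 UMI were judged by the main interval. The shares were read at other depths, which can move them by depth alone. Overlaps of the genes most alike have no interval and were judged by 1.5 times. Without cells holding a leukocyte, fibroblast or endothelial marker UMI, a choice made after seeing the data, lower members numbered 1 in all hyperplasia cells, 2 in hyperplasia Luminal Progenitor 1, 1 in Basal and 0 in all tumor cells, and higher ones 1 in hyperplasia Mature Luminal and 1 in Basal. At 2-fold, lower members numbered 1 in all hyperplasia cells, 1 in Basal, 0 in all tumor cells, 2 in tumor Mature Luminal and 0 in EMT-like, and higher ones 0 in hyperplasia Mature Luminal and 2 in all tumor cells. With shared clusters weighted equally, 1 was lower in all hyperplasia cells and 2 higher in all tumor cells. In hyperplasia Luminal Progenitor 1, lower members numbered 3 with milk, mitochondrial and ribosomal protein genes left out of the totals, where all genes lower went from 726 to 742. They numbered 2 by the mean of each cell's CPM, 3 without cells holding a leukocyte marker UMI and 2 without the 5% of cells with the most UMIs. The mean of each cell's CPM gave 1 higher in Luminal Progenitor 2 (Tap1), and a minimum of 100 UMIs 1 lower in Basal. TMM factors gave 7 lower in tumor Mature Luminal, where all genes lower went from 842 to 1666. For B2m in all hyperplasia cells the ratio ran from -0.94 to -0.43. Beyond fewer cells or a stricter threshold, the cause of these changes was not tested. Counts over all genes were made only for the main sums, TMM factors and the other totals. Member counts under the remaining alternatives have no share of all genes beside them. Depth limits the Basal and Mature Luminal values of the low genes most, with as few as 10 UMIs of Tap1 in a sum. No paired analysis was possible because each group has 1 library.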
